A study of Homo sapiens with 4 samples.

Results

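The genes described here are 36 genes of homologous recombination, the Fanconi anaemia pathway, mismatch repair and the checkpoint signalling that accompanies them. They were taken by gene name from a table of 58735 genes, each name matched 1 row, and all 36 passed the filter that left 15721 genes for testing. The 36 genes and the other lists were chosen with earlier results of these data known. The shares set beside all tested genes therefore describe the lists and do not test them. The measurements are RNA-seq gene counts from SW1990, an established human pancreatic adenocarcinoma cell line grown in DMEM. The vehicle group (2 libraries) and the gomisin G group (2 libraries, 10 µM) were both treated for 24 h, and gomisin G is a lignan from Schisandra fruit. The labels name 1 cell line and do not say whether replicates came from separate cultures, so the p-values measure only the spread between these libraries, which may be technical.

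Homologous recombination mends a broken chromosome by copying the intact sister, so it works mainly after the DNA has been replicated. The break is first cut back to single-stranded DNA, the BRCA proteins then load a recombinase onto it, and helicases and translocases finish the exchange. The Fanconi pathway unhooks crosslinks that stall replication forks, by attaching ubiquitin to a pair of clamp proteins. Mismatch repair corrects copying errors, and the ATM and ATR kinases halt the cell cycle while repair goes on. Many of these genes are known to be transcribed most strongly as cells enter S phase, under E2F factors. In RNA from bulk cells, a smaller share of cells in S phase and less of a transcript per cell cannot be told apart.

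Transcripts of these genes were lower with gomisin G. Of the 36, 34 had a negative log2 change (gomisin G minus vehicle), against 49.3% of all tested genes, and the median was -0.62 against 0.0092 over all tested genes. In 33 of the 36 both gomisin G libraries lay below both vehicle libraries, which held for 27.3% of tested genes. By edgeR's quasi-likelihood test with Benjamini-Hochberg adjustment over all tested genes, 9 of the 36 fell at an adjusted p below 0.05, against 0.903% of tested genes called lower and 1.83% called in either direction. These were BARD1, BRCA2, XRCC2, RAD54L, RAD51AP1, EXO1, BLM, FANCB and FANCI. Increases numbered 0 by edgeR (0.922% of tested genes), by DESeq2 (3.32% of the genes it tested) and by limma voom (129 of 15721 genes). At the edgeR and limma voom shares, 0 of 36 says little about these genes. An unadjusted p below 0.05 upwards was found for 0 of the 36, against 10.9% of tested genes. Only FANCF had both gomisin G libraries above both vehicle libraries, which held for 27.0% of tested genes. At an unadjusted p below 0.05, 24 were lower, against 9.62% of tested genes. DESeq2 called 16 lower, against 3.18% of the genes it tested, and limma voom called 9, against 0.859%. Leaving out 1 library at a time moved the number of decreases strongly. Dropping the first vehicle library left 3 (BARD1, XRCC2 and EXO1), in a fit that called 160 of 16671 genes. Dropping the second left 0, with 135 of 16607 genes called. Dropping the first or the second gomisin G library gave 25 or 28, in fits that called 2835 of 16572 and 6322 of 16377 genes. In each of these fits the spread comes from the pair that remains, which is the narrow vehicle pair in the last 2, so their counts say nothing about stability. The median lay between -0.76 and -0.53 in those 4 fits.

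**Figure D1:**
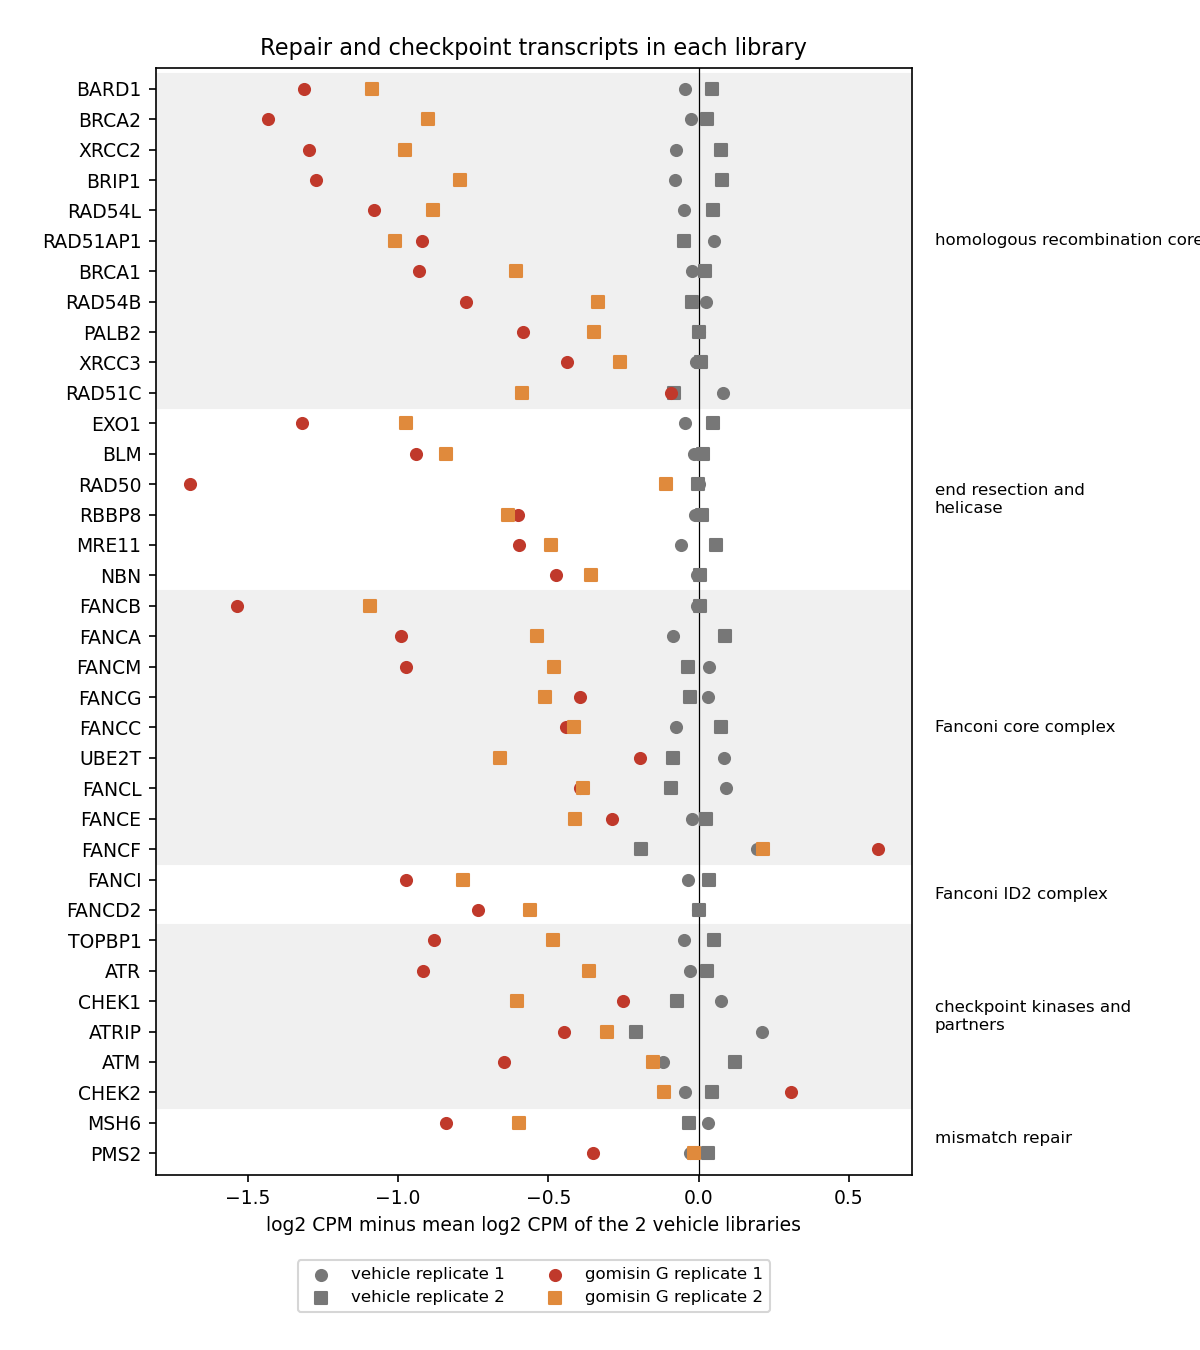
Level of each of the 36 transcripts in every library, as log2 CPM minus the mean log2 CPM of the 2 vehicle libraries (horizontal axis), grouped by role and ordered by log2 change within a role. Grey marks are vehicle libraries and coloured marks gomisin G libraries, and nearly all coloured marks lie left of the grey ones, with RAD50 split between -1.69 and -0.11.

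Promoter sequences are shown for 5 genes, chosen after their values were seen, that span the range of responses: 3 genes that fell and hold an E2F-type word near their start, 1 that fell and holds none, and 1 that holds the word but did not fall. Windows run from 250 bases before to 50 bases after the transcript start and come from RefSeq on GRCh38.p14. Capitals mark the word TTNNCGC, in which each N is C or G, read on either strand.
BARD1 chr2:214809634-214809933, minus strand: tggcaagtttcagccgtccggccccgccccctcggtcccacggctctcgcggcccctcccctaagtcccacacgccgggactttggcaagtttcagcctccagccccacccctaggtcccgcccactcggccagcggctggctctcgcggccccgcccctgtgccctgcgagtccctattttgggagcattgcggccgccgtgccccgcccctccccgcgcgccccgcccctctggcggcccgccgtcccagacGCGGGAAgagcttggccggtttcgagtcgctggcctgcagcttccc
XRCC2 chr7:152676092-152676391, minus strand: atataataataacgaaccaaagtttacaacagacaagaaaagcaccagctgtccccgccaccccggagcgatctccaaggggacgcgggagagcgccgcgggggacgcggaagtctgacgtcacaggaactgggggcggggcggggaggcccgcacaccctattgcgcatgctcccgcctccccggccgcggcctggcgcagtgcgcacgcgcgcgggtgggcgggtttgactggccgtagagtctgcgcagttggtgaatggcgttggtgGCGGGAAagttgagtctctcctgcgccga
BLM chr15:90717096-90717395, plus strand: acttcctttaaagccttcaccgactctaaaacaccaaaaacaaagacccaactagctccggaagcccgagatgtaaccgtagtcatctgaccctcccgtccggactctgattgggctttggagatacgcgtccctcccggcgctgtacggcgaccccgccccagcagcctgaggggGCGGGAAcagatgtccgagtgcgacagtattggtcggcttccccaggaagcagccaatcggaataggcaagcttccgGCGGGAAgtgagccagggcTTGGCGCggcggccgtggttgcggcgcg
FANCB chrX:14873020-14873319, minus strand: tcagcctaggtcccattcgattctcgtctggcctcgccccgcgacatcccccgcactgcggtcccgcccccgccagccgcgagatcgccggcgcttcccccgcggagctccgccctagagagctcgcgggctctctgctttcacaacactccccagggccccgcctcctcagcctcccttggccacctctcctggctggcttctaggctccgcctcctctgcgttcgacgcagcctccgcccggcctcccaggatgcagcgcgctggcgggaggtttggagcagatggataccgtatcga
FANCF chr11:22625774-22626073, minus strand: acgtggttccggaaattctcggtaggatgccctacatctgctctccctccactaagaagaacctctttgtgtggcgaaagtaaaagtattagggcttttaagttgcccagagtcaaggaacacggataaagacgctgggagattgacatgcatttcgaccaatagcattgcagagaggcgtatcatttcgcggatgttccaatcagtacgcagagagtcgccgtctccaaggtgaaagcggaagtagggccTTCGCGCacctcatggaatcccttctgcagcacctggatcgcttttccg

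The word was found in at least 1 window of 19 of the 33 genes with an entry (57.6%), against 24.8% of the 10554 tested genes with an entry. Counted by window, it was found in 53.2% of the 47 windows of these genes, against 13% of all 35114 windows of that length. Those windows include genes that were not tested, so this contrast is not the same as the one by gene. FANCI, NBN and RAD54B had no entry, and 11 of the 33 had more than 1 window. The 19 genes with the word had a median log2 change of -0.72 and included 6 of the genes that fell, namely BARD1, BLM, EXO1, RAD51AP1, RAD54L and XRCC2. The 14 genes without it had a median of -0.50 and included BRCA2 and FANCB, which fell. Over all tested genes with an entry the medians were -0.064 with the word and 0.016 without it. FANCF holds the word at its start and had a value of 0.41, the highest of the 33. The CCAAT box (CCAAT, the NF-Y word, either strand) was found in 18 of the 33, or 54.5% against 42.7% of tested genes. The TEAD-type word GGAATG, searched on both strands because the series concerns YAP, was found in 7 of the 33, or 21.2% against 15.1%. The cell cycle word TTTGAA (CHR, either strand) was found in 4 of the 33, or 12.1% against 13.4%. The E2F-type words of TOPBP1 overlap each other, and the other 3 words were counted wherever they occurred, overlapping or not. A match describes letters in a window, not a bound site.

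The homologous recombination genes proper had the lowest median of the roles. All 11 were lower in both gomisin G libraries than in both vehicle libraries, against 27.3% of tested genes. The median log2 change was -0.97, and 5 of the 11 fell (45.45%, against 0.903% of tested genes). BARD1 encodes the partner that BRCA1 needs as a ubiquitin ligase. It measured 43.8 and 46.6 CPM (counts scaled to library size with TMM factors) in vehicle and 18.1 and 21.2 CPM with gomisin G. Its log2 change was -1.20 (SE 0.17, adjusted p = 0.0233), so that the gomisin G mean was 43.5% of the vehicle mean. BARD1 lies on chromosome 2 at 214725646 to 214809711 (GRCh38, as for all genes here).

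BRCA2 loads the recombinase onto single-stranded DNA. It measured 114 and 118 CPM in vehicle and 42.9 and 62.2 CPM with gomisin G, the replicate 1 library being the lower. The log2 change was -1.14 (SE 0.20, adjusted p = 0.0384), and the gene lies on chromosome 13 at 32315474 to 32400266. XRCC2, a paralog of the recombinase, went from 40.9 and 45.4 CPM to 17.5 and 21.8 CPM. Its log2 change was -1.13 (SE 0.19, adjusted p = 0.0315), on chromosome 7 at 152644779 to 152676165. The groups did not overlap for either gene, although the gomisin G libraries of BRCA2 differed by 0.53 on the log2 scale. BRCA2 lost its call without vehicle replicate 1 or 2 (adjusted p = 0.0507 and 0.0837), and XRCC2 without vehicle replicate 2.

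RAD54L encodes the motor protein that helps strands invade, and RAD51AP1 a cofactor of the recombinase. RAD54L measured 40.7 and 43.5 CPM in vehicle and 19.8 and 22.7 CPM with gomisin G, or -0.98 as a log2 change (SE 0.17, adjusted p = 0.0358). RAD51AP1 measured 48.6 and 45.4 CPM in vehicle and 24.7 and 23.2 CPM with gomisin G, or -0.97 as a log2 change (SE 0.16, adjusted p = 0.0328). In RAD51AP1 gomisin G replicate 2 was the lower of the pair, unlike in most of the 36. The genes lie on chromosome 1 at 46247688 to 46278473 and chromosome 12 at 4538798 to 4560048. RAD54L shares 25.1% of its exonic bases with LRRC41 on the other strand. LRRC41 had 2119 and 2246 counts in vehicle and 2663 and 2918 with gomisin G, so the RAD54L count is uncertain.

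BRIP1 and BRCA1 missed the threshold by edgeR. BRIP1, a helicase that binds BRCA1, had 36.8 and 41.1 CPM in vehicle and 16 and 22.4 CPM with gomisin G (log2 change -1.02, SE 0.21, adjusted p = 0.0548). BRCA1, which promotes resection and brings in BRCA2 through PALB2, had 101 and 104 CPM in vehicle and 53.6 and 67.0 CPM with gomisin G (log2 change -0.76, SE 0.17, adjusted p = 0.0665). In both genes the groups did not overlap. DESeq2 did call BRCA1 and BRIP1, with adjusted p of 0.00932 and 0.00272, and edgeR called both with the length trend removed (0.0320 and 0.0238). Over all alternatives the adjusted p ran from 1.13e-10 to 0.489 for BRCA1 and from 1.56e-12 to 0.245 for BRIP1, lowest without gomisin G replicate 2 and highest without vehicle replicate 2.

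The other 4 recombination genes had smaller values and were not called. PALB2, the bridge between BRCA1 and BRCA2, measured 24.5 and 24.5 CPM in vehicle and 16.3 and 19.2 CPM with gomisin G (log2 change -0.46, 95% confidence interval -0.88 to -0.050). RAD54B, a relative of RAD54L, had a log2 change of -0.54 at 8.14 and 7.87 CPM in vehicle. XRCC3 and RAD51C, which encode the remaining recombinase paralogs listed, had -0.35 and -0.32. The interval of RAD51C ran from -0.79 to 0.15 and that of XRCC3 from -0.71 to 0.019. XRCC3 shares 76.7% of its exonic bases with KLC1 on the other strand, and RAD54B shares 59.1% with FSBP on the same strand, so both counts are uncertain.

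Among genes of end resection and of the BLM helicase, all 6 were lower, against 49.3% of tested genes. Of the 6, 2 fell (33.3%, against 0.903% of tested genes). EXO1, a nuclease that resects breaks and also serves mismatch repair, measured 54.3 and 57.9 CPM in vehicle and 22.4 and 28.5 CPM with gomisin G. Its log2 change was -1.14 (SE 0.18, adjusted p = 0.0297), on chromosome 1 at 241847967 to 241895148. BLM, which unwinds recombination intermediates, went from 45.2 and 46.2 CPM to 23.8 and 25.4 CPM. The log2 change was -0.89 (SE 0.16, adjusted p = 0.0387), on chromosome 15 at 90717327 to 90816165. RBBP8, which encodes the resection factor CtIP, measured 249 and 253 CPM in vehicle and 165 and 161 CPM with gomisin G. It missed the threshold by edgeR (log2 change -0.62, SE 0.15, adjusted p = 0.0796), although the groups did not overlap, and passed it by DESeq2 (adjusted p = 0.0217) and by edgeR with the length trend removed (0.0351).

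The 3 genes of the MRN break sensor had values of different reliability. MRE11, the nuclease, had a log2 change of -0.55 (95% confidence interval -0.93 to -0.16), and NBN, the adaptor, had -0.42 (-0.77 to -0.061). RAD50, the tether, measured 17.9 and 17.9 CPM in vehicle but 5.46 and 16.6 CPM with gomisin G. Its log2 change of -0.69 (SE 0.42, adjusted p = 0.381) rested on replicate 1: without that library it was -0.11. The gap between gomisin G libraries was the widest among the 36. RAD50 shares 79.7% of its exonic bases with other annotated genes, mostly with the read-through gene AC116366.3 on the same strand, which had 2 and 2 counts in vehicle and 0 and 3 with gomisin G. The sources used here do not give how reads in shared bases were counted, so the RAD50 value is uncertain.

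The Fanconi core complex is the ubiquitin ligase of the pathway, and UBE2T is the conjugating enzyme that works with it. Of these 9 genes 8 were lower, against 49.3% of tested genes, and the median log2 change was -0.43. Of the 9, 1 fell (11.1%, against 0.903% of tested genes). FANCB, which scaffolds the catalytic part of the complex, had the lowest log2 change of all 36. It measured 11.0 and 11.1 CPM in vehicle and 3.73 and 5.11 CPM with gomisin G, from 160 and 165 counts and 54 and 81 counts. The log2 change was -1.32 (SE 0.24, adjusted p = 0.0415), and the gene lies on chromosome X at 14835961 to 14873069. FANCL, the subunit with the ligase activity, had only -0.39 (95% confidence interval -0.81 to 0.019), and UBE2T had -0.41 (-0.88 to 0.052).

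The remaining core genes did not pass edgeR's test. For FANCA the log2 change was -0.75 (adjusted p = 0.0919), and it was called by DESeq2 (adjusted p = 0.0238) and by edgeR with the length trend removed (0.0459). FANCA shares 23.6% of its exonic bases with ZNF276 on the other strand, which had 637 and 728 counts in vehicle and 517 and 910 with gomisin G, so its count is uncertain. FANCM, the helicase that recognises stalled forks, had -0.71 (adjusted p = 0.124). The further subunit genes FANCG, FANCC and FANCE had -0.45, -0.43 and -0.35, with adjusted p of 0.162, 0.186 and 0.295, and FANCG passed with the length trend removed (0.0480). FANCF, an adaptor within the complex, had the highest log2 change of all 36. It measured 25.1 and 19.2 CPM in vehicle and 33.2 and 25.5 CPM with gomisin G. The log2 change was 0.41 (95% confidence interval -0.087 to 0.90, adjusted p = 0.319), and the groups were separated by a narrow gap. FANCF was called higher under 1 of the settings tried, without gomisin G replicate 2 (log2 change 0.59, adjusted p = 0.00111). That fit sets 1 library against the spread of the vehicle pair and called 6322 of 16377 genes.

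FANCD2 and FANCI form the clamp that the core complex marks with ubiquitin. FANCI measured 219 and 229 CPM in vehicle and 114 and 130.0 CPM with gomisin G, or -0.88 as a log2 change (SE 0.16, adjusted p = 0.0386), on chromosome 15 at 89243949 to 89317261. FANCD2 measured 90.1 and 90.2 CPM in vehicle and 54.2 and 61.0 CPM with gomisin G, or -0.65 as a log2 change (SE 0.16, adjusted p = 0.0793). The groups did not overlap for FANCD2, which edgeR did not call and DESeq2 did (adjusted p = 0.0288).

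Of the 6 checkpoint genes edgeR and limma voom called 0, and DESeq2 called 1 lower, against 3.18% of the genes it tested. At an unadjusted p below 0.05, 3 were lower, against 9.62% of tested genes. TOPBP1, the activator of ATR, measured 120 and 128 CPM in vehicle and 67.2 and 88.5 CPM with gomisin G (log2 change -0.67, SE 0.18, adjusted p = 0.0992). The log2 change of ATR was -0.61 (adjusted p = 0.154), that of its partner ATRIP -0.39 (adjusted p = 0.310) and ATM -0.38 (adjusted p = 0.322). ATRIP shares 27.9% of its exonic bases with TREX1, whose whole annotated length lies inside it and which is listed at 0 in all 4 libraries. The ATRIP count is therefore uncertain. The effector kinase genes differed in sign: CHEK1 had -0.42 (adjusted p = 0.237) and CHEK2 had 0.11 (adjusted p = 0.778). CHEK2 measured 41.7 and 44.3 CPM in vehicle and 53.2 and 39.6 CPM with gomisin G, so the groups overlapped. Its interval ran from -0.33 to 0.55, and its sign turned to -0.12 without gomisin G replicate 1.

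In mismatch repair edgeR and limma voom called 0 of the 2 genes, and DESeq2 called 1 lower, against 3.18% of the genes it tested. At an unadjusted p below 0.05, 1 was lower, against 9.62% of tested genes. MSH6, a subunit of the mismatch sensor, measured 35.0 and 33.5 CPM in vehicle and 19.1 and 22.6 CPM with gomisin G (log2 change -0.72, SE 0.18, adjusted p = 0.0800). PMS2, the endonuclease subunit that follows it, measured 32.2 and 33.6 CPM in vehicle and 25.8 and 32.6 CPM with gomisin G, with overlapping groups (log2 change -0.17, 95% confidence interval -0.59 to 0.25). PMS2 has 11 named pseudogene copies in the table, which together held 519 and 514 counts in vehicle and 528 and 624 with gomisin G, against 467 and 499 and 373 and 516 for PMS2 itself. Its value is uncertain for that reason.

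**Figure D2:**
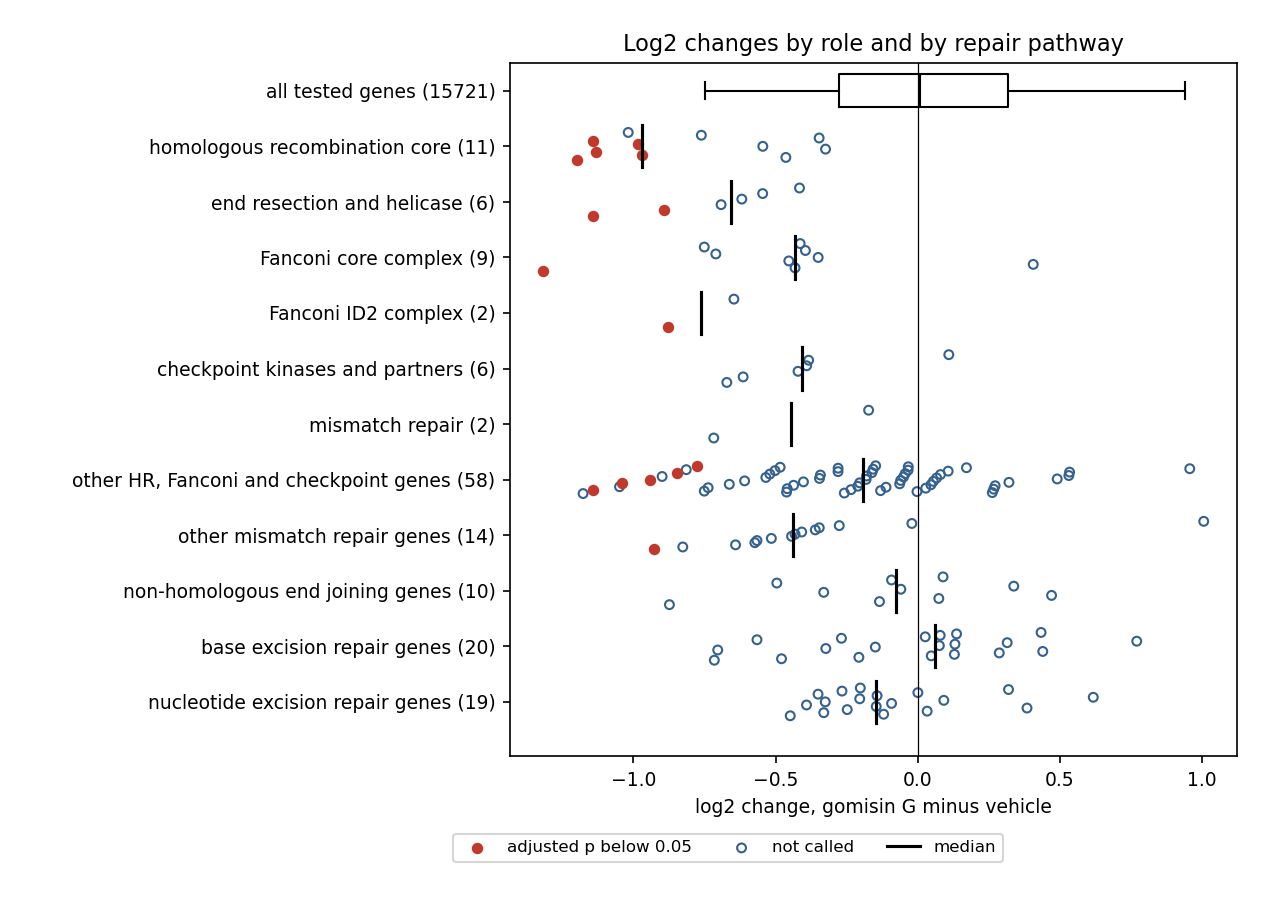
Log2 change (gomisin G minus vehicle, horizontal axis) of each gene by role, for other repair lists, and for all tested genes as a box (quartiles, whiskers at the 5th and 95th percentiles). Filled red points passed an adjusted p of 0.05, black bars are medians, and numbers in brackets count the tested genes of each list. The genes listed as the homologous recombination core have the lowest median, at -0.97.

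Genes of the same and of neighbouring pathways outside the 36 had medians closer to 0 than the -0.62 of the 36. No test compared the lists. The other mismatch repair genes, at -0.438, were level with some roles within the 36. Those roles were mismatch repair at -0.445, the Fanconi core complex at -0.431 and the checkpoint genes at -0.406. Of 58 tested other genes of homologous recombination, the Fanconi pathway and checkpoints, 5 fell (8.62%, against 0.903% of tested genes) and 0 rose, with a median of -0.19. The log2 change was negative in 43 and positive in 15. At an unadjusted p below 0.05, 17 were lower and 3 higher, against 9.62% and 10.9% of tested genes. DESeq2 called 11 lower and 0 higher, against 3.18% and 3.32% of the genes it tested. RAD51B, RAD51D and RAD52, named after their values were seen, had 0.067, -0.063 and -0.044 and were not called. Of the 5 that fell, the rule named DNA2, a resection nuclease (log2 change -1.04, SE 0.16, adjusted p = 0.0275), and FIGNL1 (-1.14, adjusted p = 0.0328). It also named RAD18, a ubiquitin ligase of damaged forks (-0.85, adjusted p = 0.0466), and MCM8, a helicase subunit (-0.94, adjusted p = 0.0469). The fifth, USP1, the enzyme that removes ubiquitin from FANCD2, was named after its value was seen (-0.77, adjusted p = 0.0477). All 5 calls were lost when either vehicle library was left out (adjusted p from 0.0564 for FIGNL1 to 0.413 for USP1). With upper-quartile scaling those of RAD18, MCM8 and USP1 were lost too (adjusted p = 0.0559, 0.0527 and 0.0563), and RAD18 and USP1 also missed the threshold with RLE factors and without the filter. Of 14 other mismatch repair genes, counting the clamp, its loader and the polymerase that fills the gap, 13 were lower with a median of -0.44. In 11 of them (78.6%) both gomisin G libraries lay below both vehicle libraries, against 27.3% of tested genes. At an unadjusted p below 0.05, 8 were lower and 1 higher, against 9.62% and 10.9%. DESeq2 called 3 lower, against 3.18% of the genes it tested. edgeR called 1 lower (7.14%, against 0.903% of tested genes). Only RFC3, a clamp loader subunit, fell (-0.93, SE 0.16, adjusted p = 0.0363), and its adjusted p was 0.269 and 0.214 without vehicle replicates 1 and 2.

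The lists of non-homologous end joining, base excision repair and nucleotide excision repair genes had medians nearer to that of all tested genes (0.0092). The nucleotide excision repair median was close to the -0.19 of the other homologous recombination, Fanconi and checkpoint genes. Whether dependence on a replicated sister plays a part was not tested. Among 10 tested genes of non-homologous end joining the median was -0.076. edgeR and limma voom called 0 of them, and DESeq2 called 1 lower, against 3.18% of the genes it tested. At an unadjusted p below 0.05, 1 was lower, against 9.62% of tested genes. For PRKDC, the kinase of that pathway, the log2 change was -0.87 (SE 0.29, adjusted p = 0.151), and for the polymerase gene POLL 0.34 (adjusted p = 0.276). Among 20 base excision repair genes the median was 0.062. There edgeR and limma voom called 0, and DESeq2 called 1 lower and 1 higher, against 3.18% and 3.32% of the genes it tested. The unadjusted p was below 0.05 for 4 lower and 2 higher genes, against 9.62% and 10.9% of tested genes. The glycosylase genes NEIL1 and UNG had 0.77 (adjusted p = 0.0590) and -0.72 (adjusted p = 0.0682). Among 19 tested nucleotide excision repair genes the median was -0.15. All 3 tools (edgeR, DESeq2 and limma voom) called 0. The unadjusted p was below 0.05 for 1 lower and 1 higher gene, again against 9.62% and 10.9% of tested genes. ERCC1, a nuclease subunit, had 0.62 (adjusted p = 0.192) and RAD23B, a damage-sensor subunit, had -0.39 (adjusted p = 0.208).

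Levels between genes were compared per length as TPM (counts divided by gene length and scaled to the library's total). In vehicle RBBP8 stood highest at 163 ± 1.52 TPM (mean ± SD, n = 2 libraries), followed by FANCI at 95.7 ± 3.01, UBE2T at 77.9 ± 6.63 and FANCG at 67.9 ± 2.15 TPM. UBE2T and FANCG were separated by little more than their spread. The lowest were RAD54B at 5.0 ± 0.127, RAD50 at 6.08 ± 0.0193 and FANCM at 9.62 ± 0.355 TPM. RAD54B and RAD50 share 59.1% and 79.7% of their exonic bases with other genes, so their low places are uncertain. With gomisin G RBBP8 stayed highest at 98.0 ± 12.6 TPM, and UBE2T at 53.1 ± 4.41 and FANCI at 48.4 ± 11.4 TPM no longer differed beyond their spread. Summed over the 36 genes, the level was 1247 and 1244 TPM in vehicle and 674 and 850 TPM with gomisin G. On this scale all tested genes shifted by -0.13 (log2, median) between groups. On TPM 35 genes were lower and 1 higher, and CHEK2 was the gene whose sign differed from that on CPM (31.7 TPM in vehicle and 31.1 TPM with gomisin G).

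**Figure D3:**
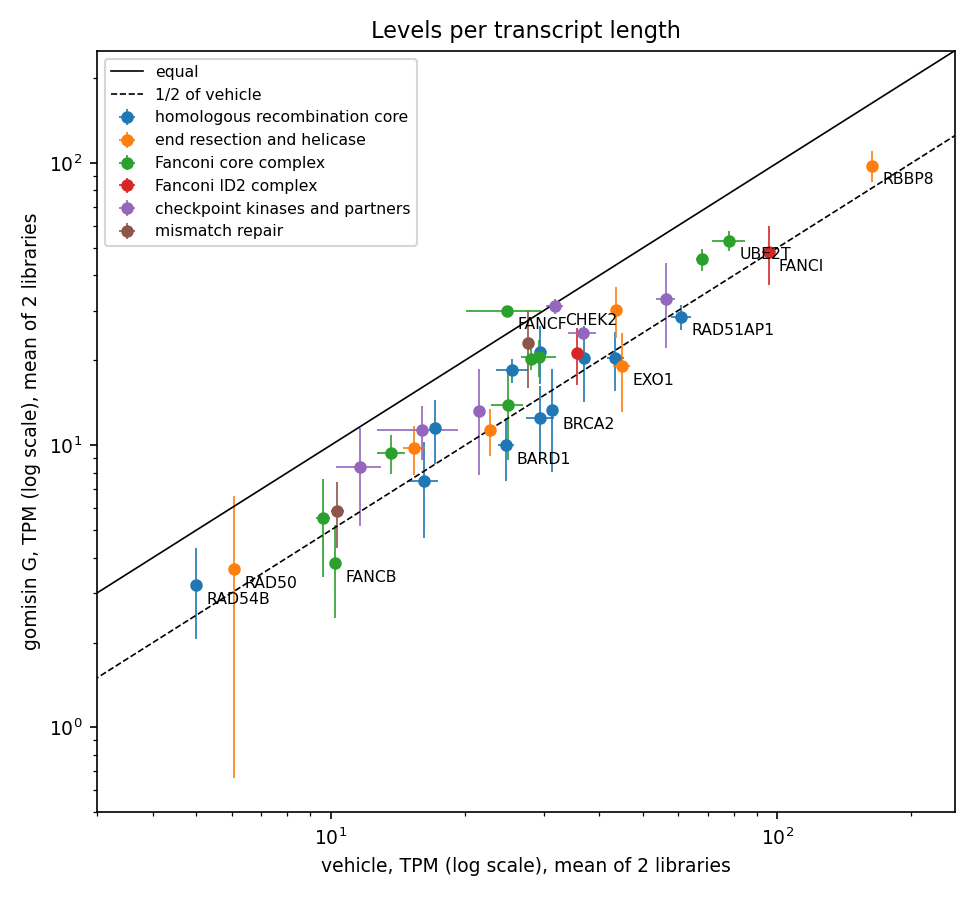
Level per length of each of the 36 genes in vehicle (horizontal axis) against gomisin G (vertical axis), in TPM on log scales. Points are means of 2 libraries, bars are SD, colours are roles, the solid line marks equal levels and the dashed line 1/2 of vehicle; FANCF alone lies above the solid line.

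Transcript ratios of genes whose proteins work as pairs differed between libraries. These pairs were chosen after their values were seen, and with 2 libraries a group an exact permutation test (two-sided) cannot give a p below 0.333, so the ratios are described only. The ratio of BRCA1 to BARD1, per length within a library, was 1.52 and 1.47 in vehicle and 1.96 and 2.08 with gomisin G. BRCA2 to PALB2 was 1.80 and 1.87 in vehicle and 1.02 and 1.25 with gomisin G. FANCD2 to FANCI was 0.382 and 0.365 in vehicle and 0.441 and 0.435 with gomisin G. The partner with the more negative log2 change was BARD1, BRCA2 and FANCI in these pairs. CHEK1 to CHEK2 was 1.25 and 1.06 in vehicle and 0.783 and 0.823 with gomisin G. The groups did not overlap either for ATM to ATR, BRCA1 to BRIP1, RAD54L to RAD54B, EXO1 to MSH6 and PMS2 to MSH6. How often the ratios of other gene pairs separate was not tested. Some pairs overlapped between groups: MRE11 to RAD50 was 2.43 and 2.64 in vehicle and 5.49 and 1.94 with gomisin G. ATR to ATRIP was 1.15 and 1.61 in vehicle and 0.983 and 1.31 with gomisin G. XRCC3 to RAD51C and FANCL to UBE2T overlapped as well. RAD50, ATRIP, XRCC3, RAD54L and RAD54B share many of their exonic bases with other genes, and PMS2 has pseudogene copies. The ratios that hold these genes are uncertain. MRE11 to NBN, 2 parts of the break sensor, was 0.341 and 0.367 in vehicle and 0.325 and 0.323 with gomisin G, without overlap.

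The 2 gomisin G libraries differed in how far they lay from vehicle. The first had a median log2 difference of -0.75 from the vehicle mean over the 36 genes, the second one of -0.53, and the first was the lower in 27 of the 36 (75%, against 51.6% of tested genes). The median absolute gap between libraries was 0.080 for the vehicle pair and 0.32 for the gomisin G pair, which was the wider in 30 of the 36. Replicate 2 lay further above replicate 1 in longer genes. Across the 36 genes, which share the same libraries, replicate 2 minus replicate 1 and log2 length had a Pearson r of 0.51 (Spearman 0.55) for gomisin G and 0.46 (0.37) for vehicle. Over all 15721 tested genes the values were 0.23 (Spearman 0.38) and 0.13 (0.21). The log2 change itself and length had a Pearson r of -0.15 (Spearman -0.19) across the 36 and -0.21 (-0.29) across all tested genes, and the median length was 6112 bases for the 36 against 4423 for all tested. With the length trend removed from every library, the median log2 change of the 36 was -0.54 and 16 fell, among them all 9 named above, in a fit that called 887 of all tested genes against 287 without the correction. The part of length or of either library in the results was not tested. ATM and ATR, both long, had log2 differences of -0.65 and -0.92 in replicate 1 and -0.15 and -0.36 in replicate 2. UBE2T and CHEK1 went the other way, with -0.19 and -0.25 in replicate 1 and -0.66 and -0.60 in replicate 2.

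**Figure D4:**
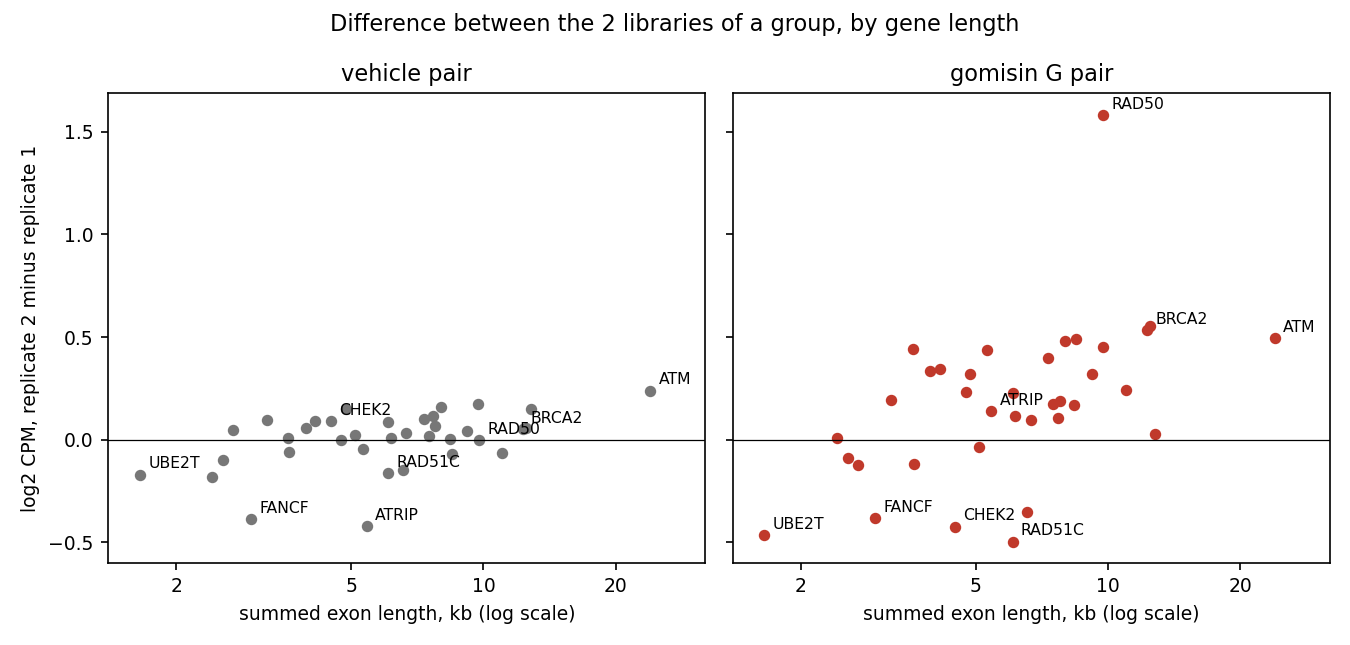
Log2 CPM of replicate 2 minus replicate 1 (vertical axis) against summed exon length in kb on a log scale (horizontal axis), for the vehicle pair (left) and the gomisin G pair (right), 1 point a gene. Longer genes sit higher in both panels, and RAD50 in the gomisin G pair lies at 1.58, apart from the rest.

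Total counts ranged from 14580848 to 15245770 a library, and the 36 genes took 0.218 and 0.224% of them in vehicle and 0.131 and 0.156% with gomisin G. The lowest count among them was 54, for FANCB in gomisin G replicate 1, so none was near the floor of 3 counts (0.189 to 0.207 CPM), which covers counting error only. Of 7 ductal epithelial markers, KRT8, KRT18, KRT19, EPCAM and CDH1 were each at 271 CPM or more in every library. KRT7 was at 2.07 CPM or less, and MUC1 lay between 6.80 and 13.5 CPM. Summed, the 7 ductal markers gave 11234 and 9435 CPM in vehicle and 9341 and 7010 CPM with gomisin G. The sum follows KRT8 and KRT18, and 4 of the 7 had a positive log2 change (KRT7, KRT19, EPCAM and MUC1; median of the 7, 0.29). edgeR and limma voom called 0 of them, DESeq2 called KRT19 higher, and 2 were higher at an unadjusted p below 0.05 (10.9% of tested genes). Of 9 markers of immune, endothelial and fibroblast cells, 4 had 0 counts in every library (PTPRC, CD3E, COL1A2 and LUM). The 9 summed to 4.28 and 3.97 CPM in vehicle and 4.84 and 8.08 CPM with gomisin G, mostly from COL1A1, and their part in the results was not tested.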

How the data were processed

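Total RNA was depleted of ribosomal RNA and sequenced by a service company, per the labels' protocols. The authors deposited a whole-number read count per gene and library with gene lengths; fastp, HISAT2, featureCounts and the build hg38 are named, without versions, in the submitters' processing notes. Strand and multi-mapping settings are not given in the sources used here. All 58735 gene IDs were read as deposited, and the 36 genes matched GENCODE 29 in ID, position and exon length.

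Groups were compared in 1 fit of the 4 libraries with edgeR 4.0.16 (quasi-likelihood F test, TMM factors, filterByExpr, 2 residual degrees of freedom) in R 4.3.3, with Benjamini-Hochberg adjustment over 15721 genes and a threshold of 0.05. DESeq2 1.42.0 and limma 3.58.1 voom, other scalings and filters, a length correction, a replicate block and each library left out were alternatives. TPM used the deposited lengths. The 2 libraries of a group were not duplicates of each other: the chi-square statistic per gene was 6.98 for the vehicle pair and 37.1 for the gomisin G pair. It was not computed for pairs across groups.

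The 36 genes and the other lists were chosen with earlier results of these data known. All 36 are named; from each other list the rule names the called genes, at most 4 by lowest p, or, where 0 were called, the 2 with the lowest p. Promoters are from RefSeq.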

Additional observations from a re-analysis of the deposited data

How the results depend on the processing

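All 9 decreases kept their calls with RLE or upper-quartile factors, without a filter beyond 1 count, with at least 50 counts in 2 libraries, with DESeq2, limma voom and edgeR's legacy fit, and with the length trend removed. The median log2 change lay between -0.76 and -0.53 under all alternatives tried. Over all tested genes edgeR called 287, DESeq2 883 and the fit with the length trend removed 887; among the 36 genes the decreases numbered 9, 16 and 16. Leaving out 1 library gave 135 to 6322 calls over all genes, and 0 to 28 decreases and 0 to 1 increase among the 36. In these fits the spread rests on the pair that remains and the lone library is assumed to vary like it: the wider gomisin G pair where a vehicle library is left out (160 and 135 calls), the narrower vehicle pair where a gomisin G library is (2835 and 6322 calls). The calls kept in the latter say nothing about stability. CHEK2 went from 0.11 to -0.12 without gomisin G replicate 1 and to 0.31 without replicate 2. The replicate block called 2886 genes in all and 21 decreases among the 36; the labels do not say that a number pairs libraries, and deviations of same-numbered libraries from their group means had a correlation of 0.21. With 2 libraries a group and 2 residual degrees of freedom, a p that misses the threshold does not show that a transcript was unchanged.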
